A study of Mus musculus with 8 samples.

Results

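Cell division genes are described here across the liver transcriptomes of control mice, endotoxemic mice and endotoxemic mice treated with LGK974. The set holds 38 genes of S phase and mitosis, named one by one and looked up by symbol among the 23282 rows of the count tables, where each was found on 1 row. The rule for the set uses no measured value, but the set was proposed with earlier results of these data known. All mice were of the C57BL/6 strain, and the labels describe them as males of 4 weeks of age. The control group received saline and the endotoxemic group received lipopolysaccharide (LPS, a component of the outer membrane of Gram-negative bacteria) at 25 mg/kg by intraperitoneal injection. The labels of the LGK974 group name only that compound, an inhibitor of the acyltransferase Porcupine, without which Wnt proteins are not secreted. The methods of the study give LGK974 at 60 mg/kg on top of the same LPS dose, in most experiments injected 2 h before LPS, and collection of the liver 6 h after LPS. The comparisons ask how transcripts of cell division differed between endotoxemic and control livers, and what differed when the Wnt inhibitor was added.

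A cell that leaves rest first raises the D- and E-type cyclins, whose kinases inactivate the retinoblastoma protein family and free the E2F transcription factors. E2F targets license replication origins and supply DNA precursors in S phase, and a later wave of genes drives chromosome segregation in mitosis. Hepatocytes of a growing mouse still divide, those of the adult liver are largely at rest, and hepatocytes re-enter the cycle after loss of liver tissue.

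The labels list 2 control, 4 endotoxemic and 2 LGK974 libraries, but a pair of endotoxemic libraries repeated the counts of the other pair on every row and were counted once, which left 2 libraries a group. The labels do not say that libraries of a group come from separate mice, so p-values measure the spread between these libraries, which may be technical. Totals ranged from 9142116 to 15222439 counts a library, and 3 counts, the smallest signal taken as shown, lay between 0.196 and 0.327 CPM (the count scaled to the TMM-normalized library total). *Xist*, which is transcribed from the inactive X chromosome of females, had 1171 to 3115 counts in the control and endotoxemic libraries but only 3 and 7 in those of the LGK974 group. The Y-linked *Ddx3y* had 0 counts in every control and endotoxemic library and 1755 and 1392 in the LGK974 libraries. The libraries labelled control and endotoxemic thus went against their male label, and LGK974 treatment and sex cannot be told apart in any comparison with the LGK974 group.

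Rows of the tables run along the chromosomes, and on 579 rows the symbol belongs to a gene located over 2 Mb away from those named on the neighbouring rows. All 38 cell division genes stood in genomic order. For 4 of them a neighbouring row was out of order, namely *Serpinc1* after *Top2a*, *Camk1d* before *Mcm3*, *Ccl11* before *Mcm5* and *Tnfrsf25* before *Tyms*. Such rows were left out, or their symbols were reassigned in the endotoxemic and LGK974 libraries only. Neither changed a call among these 4 genes, and whether their values were affected was not tested further.

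Hepatocyte markers were abundant in every library, with a summed level of 93020 and 126700 CPM in control, 40030 and 57480 in endotoxemic and 42080 and 47080 in LGK974 libraries. Against the control group, 8 of 10 such markers (80%) fell in endotoxemic livers and 6 of 10 (60%) in LGK974 livers. At an adjusted p below 0.05, 43.4% of all genes passed in the endotoxemic group, 20.4% higher and 23% lower. In the LGK974 group against control 34.1% passed, 16.4% higher and 17.7% lower. Most neutrophil markers moved opposite to the hepatocyte markers. The 5 neutrophil markers on rows in order, *Mpo*, *Camp*, *Ngp*, *Ltf* and *Retnlg*, summed to 1.70 and 1.76 CPM in control, 55.8 and 58.0 in endotoxemic and 42.0 and 50.4 in LGK974 libraries, and all but *Retnlg* were at 0 in both control libraries. Of the 7 tested neutrophil markers, 6 rose in the endotoxemic group (85.7%), *S100a9* and *Cxcr2* among them on rows out of order. In the LGK974 group against control 6 rose and 1 fell (100%), the latter *S100a8*, also on a row out of order. Erythroid markers summed to between 2735 and 7733 CPM and were highest in the endotoxemic libraries. Of 8 tested, 5 rose and 1 fell there (75%). Of 10 Kupffer cell and macrophage markers, 1 (*Marco*) rose and 5 fell in the endotoxemic group (60%). *Cd5l* and *Csf1r*, among those that fell, are on rows out of order. Without *Marco*, those on rows in order summed to 190 and 205 CPM in control, 117 and 151 in endotoxemic and 77.8 and 77.4 in LGK974 libraries, and with it to between 139 and 225 CPM. Of 8 endothelial markers, 2 rose and 4 fell in the endotoxemic group (75%), *Stab1* among the latter on a row out of order. The 7 on rows in order summed to 265 and 271 CPM in control, 455 and 454 in endotoxemic and 488 and 625 in LGK974 libraries, but *Lyve1* alone carried this order, as the other 6 summed to 215 and 235, 94.9 and 118, and 88.8 and 126 CPM. T and B cell markers summed to 8.26 CPM or less in every library, and 0 of the 3 tested passed in any comparison by edgeR, with 1 at an unadjusted p below 0.05 in each comparison with the LGK974 group and 1 called lower by DESeq2 in the LGK974 group against control. From the endotoxemic to the LGK974 group, 3 of 8 erythroid markers (37.5%), 2 of 10 Kupffer cell and macrophage markers (20%) and 1 of 8 endothelial markers (12.5%) fell, against 5.62% of all genes that passed there in either direction, and no marker of these lists rose by edgeR, while DESeq2 called 1 erythroid marker higher. *Cd5l*, among the Kupffer cell markers that fell here, is on a row out of order. The part of these marker shifts in the results was not tested. In bulk liver RNA, fewer cells of a type and less RNA per cell cannot be told apart.

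Of the 38 cell division genes, 31 passed edgeR's filter on low counts. The other 7, which were not tested, were *Cdc6*, *Ccnb1*, *Ccnb2*, *Aurkb*, *Foxm1*, *Bub1* and *Kif11*, and their counts ranged from 0 to 15 in a library. In the endotoxemic group against the control group, 5 genes rose and 3 fell at an adjusted p below 0.05, and 23 did not pass. The background was high, as 43.4% of the 12701 genes tested passed in this comparison, 20.4% higher and 23% lower. The share of cell division genes that passed (25.8%) was therefore below that of all genes. Many of these genes had few counts, and the shares were not matched on level of expression. The part of low counts in this difference was not tested. The median log2 fold change of the tested set was 0.12, against 0.01 over all genes. *Ccnd1*, *Ccne1*, *Mcm4*, *Ube2c* and *Ccna2* were the genes that rose, and *Tk1*, *Rrm2* and *Aurka* those that fell. In the LGK974 group against the control group, *Ccne1*, *Cdk1*, *Mcm2* and *Mcm3* rose and *Tk1* fell, where 34.1% of all genes passed, 16.4% higher and 17.7% lower. Between the LGK974 and endotoxemic groups, 0 of the 31 genes passed by edgeR, 4 had an unadjusted p below 0.05, and DESeq2 called *Ccne1* higher and *Ccnd1* lower. The background there was 5.62% of all genes, 2.8% higher and 2.82% lower. Each pair of these comparisons shares the libraries of 1 group.

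**Figure D1:**
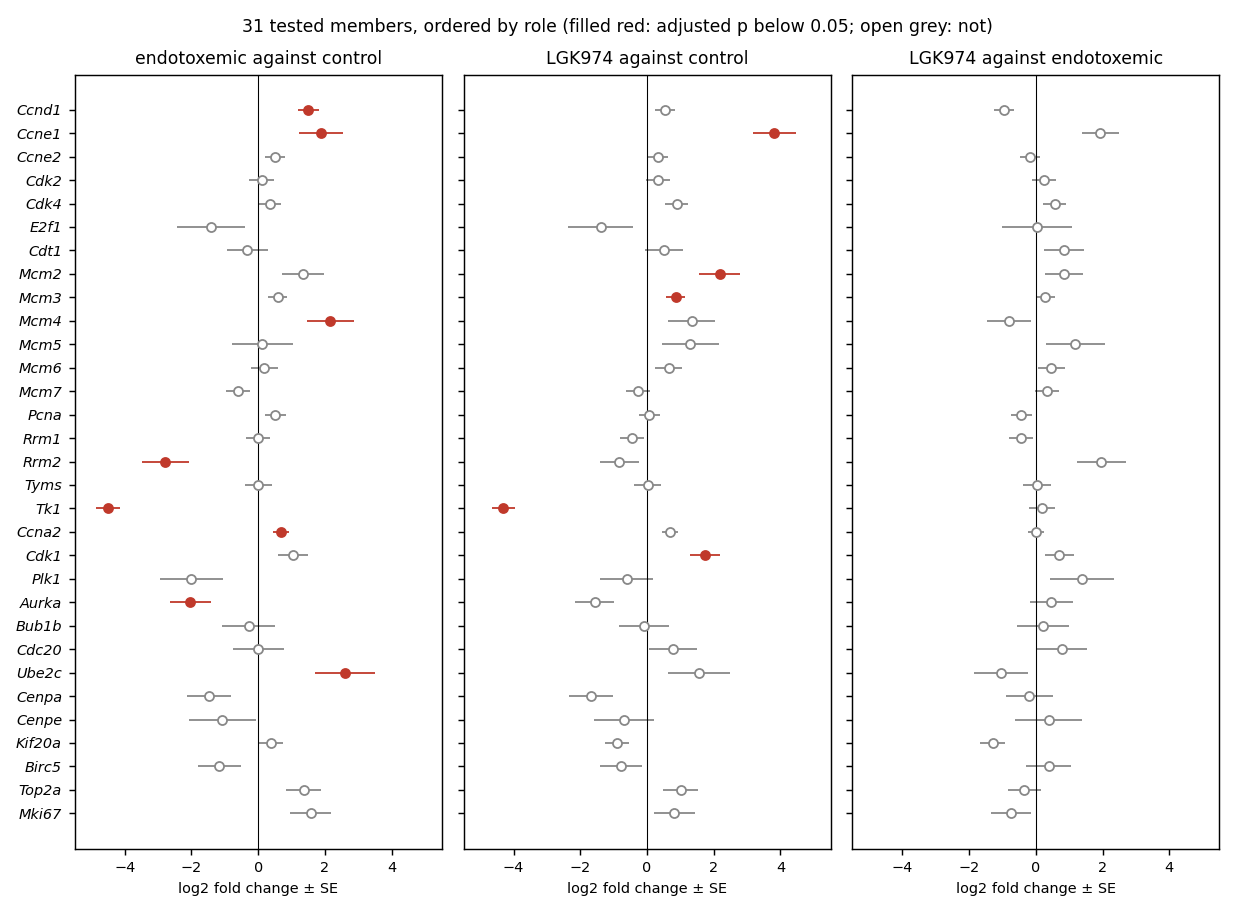
Log2 fold change with its SE for the 31 tested cell division genes, ordered by role, in the 3 comparisons. Filled red points passed an adjusted p of 0.05, and *Tk1* stands farthest to the left in both comparisons with the control group, at −4.49 and −4.31.

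Summed over all 38 genes, the level was 252 and 254 CPM in control, 389 and 397 in endotoxemic and 335 and 251 in LGK974 libraries. *Ccnd1* and *Tk1* made up a large part of these sums. Without them, the sums were 127 and 132 CPM in control, 151 and 166 in endotoxemic and 170 and 173 in LGK974 libraries, with no overlap between the groups. In the control libraries, 1 gene made up a large part of the sum in 2 roles. Genes of DNA synthesis summed to 62.3 and 69.2 CPM in control, 26.2 and 32.0 in endotoxemic and 21.7 and 26.9 in LGK974 libraries, whereas genes of G1/S control were higher in the endotoxemic libraries, at 269 and 273 CPM against 110 and 116, and lay far apart in the LGK974 libraries, at 210 and 132 CPM. Without *Tk1*, the other DNA synthesis genes summed to 23.1 and 25.4 CPM in control, 24.9 and 29.6 in endotoxemic and 24.5 and 20.0 in LGK974 libraries, and the groups overlapped. Without *Ccnd1*, the other G1/S genes summed to 31.19 and 31.04 CPM in control, 35.9 and 40.5 in endotoxemic and 47.9 and 54.9 in LGK974 libraries. These sums did not overlap between the groups. Control was still the lowest, and the LGK974 libraries, not the endotoxemic ones, were the highest. Origin licensing genes summed to 30.1 and 33.9, 35.6 and 42.0, and 42.1 and 49.9 CPM in the control, endotoxemic and LGK974 groups.

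**Figure D2:**
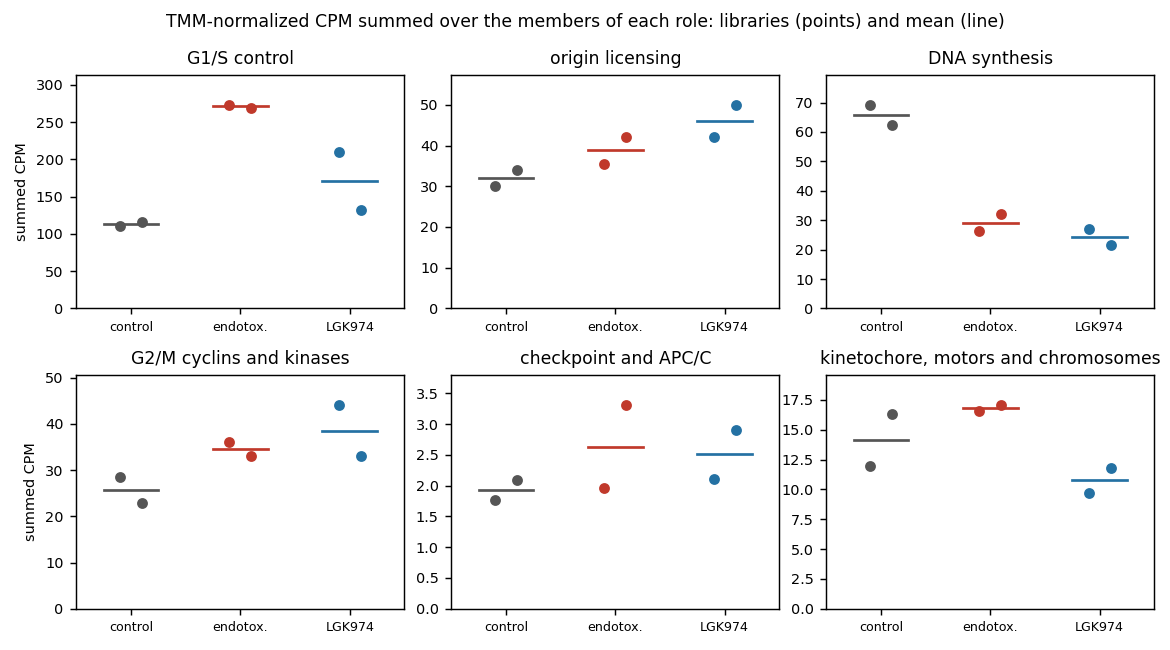
TMM-normalized CPM summed over the genes of each role in the 6 distinct libraries (points) with the group mean (line). The control libraries lie above all others for DNA synthesis, at 62.3 and 69.2 CPM, of which *Tk1* made up 46.0 and 36.9 CPM, and below all others for G1/S control, at 110 and 116 CPM, of which *Ccnd1* made up 79.3 and 85.2 CPM.

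G1/S control comprised 6 genes, all tested, of which 2 rose in the endotoxemic group and none fell (33.3%, against 43.4% of all genes). *Ccnd1* (chr7:144929931-144939925, minus strand, GRCm38) encodes cyclin D1, the partner of Cdk4 and Cdk6 and a known target of Wnt signaling. It had 79.3 and 85.2 CPM in control, 237 and 229 in endotoxemic and 162 and 76.7 in LGK974 libraries. The endotoxemic libraries were the highest, while the LGK974 libraries lay far apart and overlapped the control libraries. The mean level was 82.2 ± 4.17 CPM (SD, n = 2) for control and 233 ± 5.68 for endotoxemic libraries, a log2 fold change of 1.5 (SE 0.31, adjusted p = 0.0044), and it passed in all 16 alternative settings, at 1.45 to 1.56. Against the control group, the LGK974 group differed by 0.54 (adjusted p = 0.208), or by 0.99 without LGK974 library 2 (adjusted p = 0.000523). From the endotoxemic to the LGK974 group the change was −0.96 (SE 0.31, adjusted p = 0.104). It rested on LGK974 library 2, as it was −1.60 without LGK974 library 1 (adjusted p = 8.68e-05) but −0.52 without LGK974 library 2 (adjusted p = 0.0918). It also passed with DESeq2 (−0.98, adjusted p = 0.0298), when low rows were kept (adjusted p = 0.00131) and with identical libraries as separate samples (adjusted p = 0.0257).

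*Ccne1* (chr7:38097984-38107534, minus strand) encodes cyclin E1, which activates Cdk2 at the entry to S phase. It had 2 and 14 counts in control, 14 and 27 in endotoxemic and 119 and 116 in LGK974 libraries. On the CPM scale the 3 groups did not overlap, and the LGK974 libraries were by far the highest, at 8.98 and 7.85 CPM. The log2 fold change was 3.82 (SE 0.63, adjusted p = 0.00173) in the LGK974 group against the control group and passed in each of the 15 alternative settings that gave a value, at 3.19 to 5.43, the extremes being the fits without control library 1 and 2. It was 1.89 (SE 0.66, adjusted p = 0.044) in the endotoxemic group against the control group, but 1.26 without control library 1 (adjusted p = 0.178), 1.37 without endotoxemic library 2 (adjusted p = 0.253) and 3.50 without control library 2 (adjusted p = 0.0199). The rise from the endotoxemic to the LGK974 group, of 1.93 (SE 0.56), had an adjusted p of 0.0811 by edgeR, and of 0.00284 when low rows were kept and 0.0336 by DESeq2.

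The other G1/S genes did not pass in any of the 3 comparisons. *Cdk4*, the catalytic partner of cyclin D1, had 10.2 and 11.96 CPM in control, 9.82 and 18.2 in endotoxemic and 16.2 and 25.0 in LGK974 libraries. The LGK974 libraries thus lay above the control libraries but overlapped the endotoxemic ones, and the adjusted p against control was 0.0745, or 0.013 without LGK974 library 1 and 0.0108 when low rows were kept. *E2f1*, which encodes an activating E2F factor, had 13 and 56 counts in control, 4 and 13 in endotoxemic and 2 and 25 in LGK974 libraries, and the groups overlapped. Its change in the LGK974 group against control was −1.39 (adjusted p = 0.305), and −3.94 without LGK974 library 2 (adjusted p = 0.0256). Cyclin E2 (*Ccne2*) and *Cdk2* had log2 fold changes of between −0.18 and 0.50.

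Origin licensing comprised *Cdt1* and *Cdc6*, which load the replicative helicase onto origins, and *Mcm2* to *Mcm7*, the 6 subunits of that helicase. Of the 7 genes tested, *Mcm4* rose in the endotoxemic group (14.3%, against 43.4% of all genes). In the LGK974 group against control, *Mcm2* and *Mcm3* rose (28.6%, against 34.1%). None fell in any comparison. *Mcm2* (chr6:88883474-88898780, minus strand) had 13 and 8 counts in control, 25 and 15 in endotoxemic and 42 and 67 in LGK974 libraries. Its levels ascended from control over endotoxemic to LGK974 without overlap, at 0.865 ± 0.484, 2.16 ± 0.798 and 3.85 ± 0.964 CPM (SD, n = 2). The change was 2.18 (SE 0.61, adjusted p = 0.0226) between LGK974 and control. It was 2.86 without control library 1 (adjusted p = 0.0421), and did not pass without control library 2 (1.67, adjusted p = 0.144) or without LGK974 library 2 (1.91, adjusted p = 0.056).

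*Mcm3* (chr1:20802968-20820312, minus strand) had 6.68 and 5.56 CPM in control, 8.40 and 9.81 in endotoxemic and 12.1 and 10.1 in LGK974 libraries. The groups followed the same order without overlap, but the rise of 0.86 in the LGK974 group (SE 0.29, adjusted p = 0.046) was close to the threshold. It did not pass with DESeq2 (adjusted p = 0.0818), with a replicate block (adjusted p = 0.0546) or when only the groups compared were fitted (adjusted p = 0.0729). Nor did it pass when either control library, either endotoxemic library or LGK974 library 1 was left out, at 0.73 to 0.99. *Mcm4* (chr16:15623897-15637400, minus strand) had 4 and 56 counts in control, 80 and 96 in endotoxemic and 87 and 62 in LGK974 libraries. The control libraries were far apart from each other, and both lay below all other libraries on the CPM scale. The log2 fold change of 2.16 in the endotoxemic group (SE 0.70, adjusted p = 0.0334) became 1.37 without control library 1 (adjusted p = 0.0683) and 4.64 without control library 2 (adjusted p = 0.00203). It was 2.35 and 2.06 without endotoxemic library 1 and 2 (adjusted p = 0.0783 and 0.13). In the LGK974 group against control it was 1.34 (adjusted p = 0.168), and passed without control library 2 (3.82, adjusted p = 0.00681) and when low rows were kept (adjusted p = 0.00675).

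*Mcm5* and *Mcm6* had positive changes and *Mcm7* negative ones against the control group, and none of these passed. *Mcm7* shares the last 64 bases of its gene with the end of *Cops6* on the other strand. *Cdc6* was near the limit of detection, at 0 and 1 counts in control, 0 and 5 in endotoxemic and 12 and 3 in LGK974 libraries. *Cdt1* had 14 and 54 counts in control, 21 and 15 in endotoxemic and 35 and 64 in LGK974 libraries. The control libraries overlapped both other groups, and the LGK974 libraries lay above the endotoxemic ones without a call (adjusted p = 0.443).

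DNA synthesis comprised 5 genes, all tested, of which 2 fell in the endotoxemic group (40%, against 43.4% of all genes). *Tk1* (chr11:117815526-117826092, minus strand) encodes cytosolic thymidine kinase, the salvage enzyme that phosphorylates thymidine in S phase. It had 496 and 565 counts in control, 12 and 22 in endotoxemic and 32 and 26 in LGK974 libraries. All 4 libraries of LPS-treated mice lay far below both control libraries. The mean level was 41.5 ± 6.44 CPM (SD, n = 2) for control, 1.83 ± 0.732 for endotoxemic and 2.09 ± 0.464 for LGK974 libraries. This was 22.5-fold lower in the endotoxemic group (log2 fold change −4.49, SE 0.36, adjusted p = 1.93e-05) and 19.8-fold lower in the LGK974 group (−4.31, SE 0.34, adjusted p = 2.34e-05). *Tk1* passed in all 16 alternative settings in both comparisons, at −4.97 to −4.08 and −4.54 to −4.09. Between the LGK974 and endotoxemic groups it differed by 0.18 (SE 0.38, adjusted p = 0.816).

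*Tk1* starts 168 bases from *Afmid*, the arylformamidase gene of tryptophan breakdown, which is transcribed in the opposite direction. *Afmid* had 4490 and 6810 counts in control, 451 and 600 in endotoxemic and 760 and 411 in LGK974 libraries. It fell by 2.93 on the log2 scale in the endotoxemic group (SE 0.332, adjusted p = 0.000135), so that both genes of this divergent pair were low in the same libraries. The *Tk1* count was between 2.66% and 11.1% of the *Afmid* count. No base of the last 500 of *Tk1*, where the 3′-end reads are drawn from, lies in an *Afmid* exon.

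*Rrm2* (chr12:24708241-24714146, plus strand) encodes the small subunit of ribonucleotide reductase, which makes deoxyribonucleotides. It had 24 and 36 counts in control, 4 and 2 in endotoxemic and 18 and 18 in LGK974 libraries. The LGK974 libraries lay between the other groups, at 1.29 ± 0.0995 CPM against 2.29 ± 0.0886 and 0.325 ± 0.158 CPM (SD, n = 2). *Rrm2* fell by 2.78 on the log2 scale in the endotoxemic group (SE 0.71, adjusted p = 0.0119), but on few counts, and did not pass when any of the 4 libraries compared was left out (adjusted p = 0.0529 and 0.0621 without control library 1 and 2, and 0.0555 and 0.105 without endotoxemic library 1 and 2). From the endotoxemic to the LGK974 group *Rrm2* differed by 1.96 (SE 0.73, adjusted p = 0.149).

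The remaining DNA synthesis genes showed no change past the threshold. *Rrm1*, the large subunit of ribonucleotide reductase, had 7.52 and 5.10 CPM in control, 6.11 and 6.40 in endotoxemic and 4.23 and 4.94 in LGK974 libraries. The LGK974 libraries were the lowest, without a call (log2 fold change −0.45, SE 0.35, adjusted p = 0.352 against control), and the control and endotoxemic libraries overlapped (log2 fold change −0.01, SE 0.35). *Tyms*, thymidylate synthase, had 3.25 and 4.58 CPM in control, 3.27 and 4.58 in endotoxemic and 3.55 and 4.40 in LGK974 libraries. All 3 groups overlapped for *Tyms*. *Pcna*, the sliding clamp of DNA polymerases, had 10.1 and 13.3 CPM in control and 15.1 and 18.4 in endotoxemic libraries (adjusted p = 0.216). Annotated pseudogenes of *Pcna* and *Tyms*, and also of *Ccnb1* and *Ccnb2*, could share reads with these genes.

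**Figure D3:**
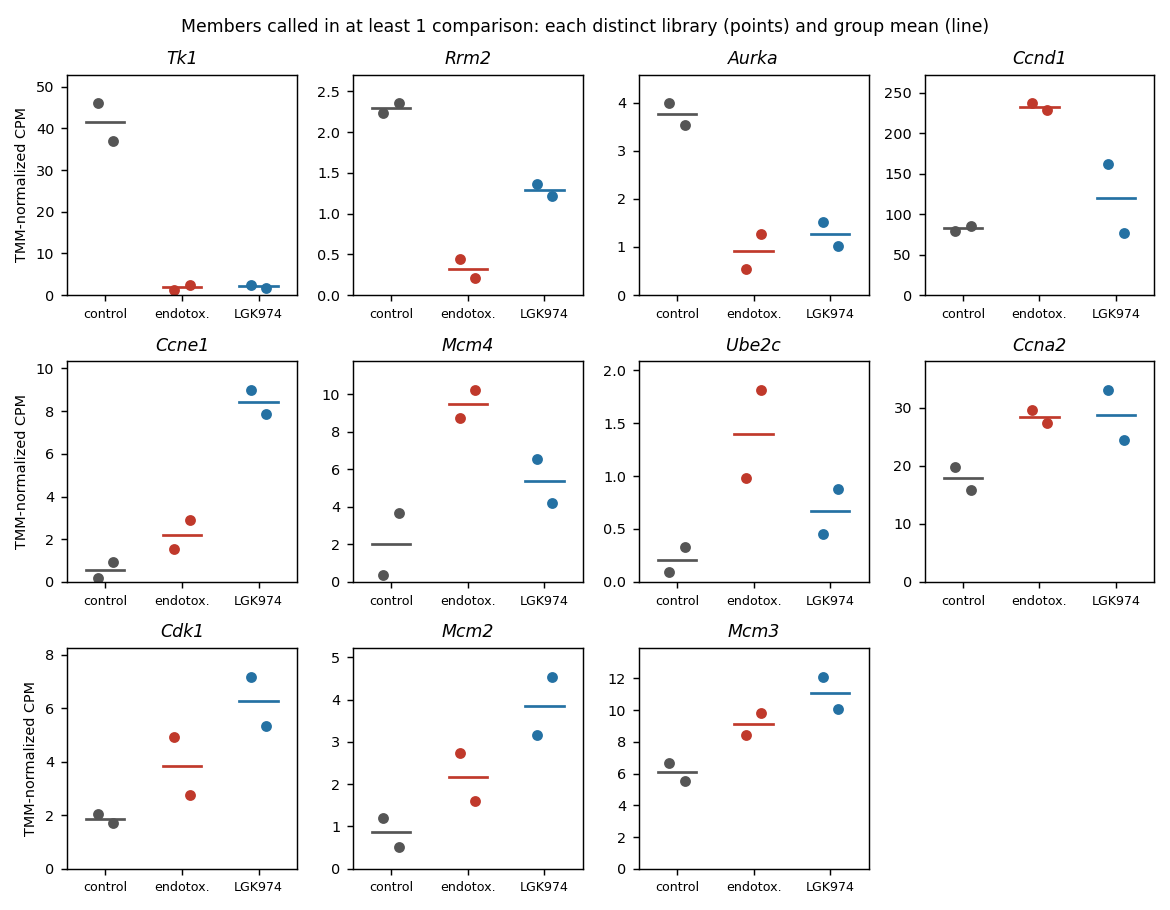
TMM-normalized CPM of the 11 cell division genes that passed the threshold in at least 1 comparison, in each of the 6 distinct libraries (points) with the group mean (line), each panel on its own linear axis from 0. *Tk1*, *Rrm2* and *Aurka* are highest in the control libraries, and *Ccne1*, *Cdk1*, *Mcm2* and *Mcm3* in the LGK974 libraries.

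G2/M cyclins and kinases comprised 8 genes, of which only *Ccna2*, *Cdk1*, *Plk1* and *Aurka* had enough counts to be tested. *Cdk1* (chr10:69335146-69352938, minus strand) encodes the kinase that drives entry into mitosis. It had 22 and 26 counts in control, 45 and 26 in endotoxemic and 95 and 79 in LGK974 libraries. On the CPM scale the LGK974 libraries were the highest and the control libraries the lowest, at 6.26 ± 1.29 against 1.87 ± 0.242 CPM (SD, n = 2). The rise of 1.74 in the LGK974 group (SE 0.45, adjusted p = 0.0157) did not pass without control library 1 or 2 (adjusted p = 0.0669 and 0.0977). In the endotoxemic group it was 1.04 (SE 0.46, adjusted p = 0.0971).

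*Aurka* (chr2:172356190-172370535, minus strand) encodes Aurora kinase A, which acts at the spindle poles. It had 43 and 54 counts in control, 5 and 12 in endotoxemic and 20 and 15 in LGK974 libraries. Both control libraries were above all others. It fell by 2.03 on the log2 scale in the endotoxemic group (SE 0.62, adjusted p = 0.0258) and did not pass in the LGK974 group (log2 fold change −1.57, SE 0.58, adjusted p = 0.064). The call in the endotoxemic group did not hold without control library 1 or 2 or endotoxemic library 1 (adjusted p = 0.11, 0.0834 and 0.187), and the change was −2.76 without endotoxemic library 2. *Plk1*, a kinase of mitotic entry and cytokinesis, had 18 and 9 counts in control, 2 and 3 in endotoxemic and 12 and 8 in LGK974 libraries (adjusted p = 0.117 between the endotoxemic and control groups). The control libraries were thus above the endotoxemic ones without a call.

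*Ccna2* (chr3:36564865-36572150, minus strand) encodes cyclin A2 of S phase and early mitosis. It had 19.8 and 15.9 CPM in control, 29.6 and 27.3 in endotoxemic and 33.0 and 24.4 in LGK974 libraries. The libraries of LPS-treated mice were all above the control libraries. The log2 fold change was 0.68 in the endotoxemic group (SE 0.24, adjusted p = 0.0474) and 0.69 in the LGK974 group (SE 0.24, adjusted p = 0.0524), the latter passing in 7 alternative settings (adjusted p = 0.00862 to 0.0497). The former did not pass without either control or either endotoxemic library (adjusted p = 0.097 to 0.253) or with DESeq2. Of the last 500 bases of *Ccna2*, 147 lie in exons of *Exosc9* on the other strand, and the *Ccna2* count was between 85.3% and 97.1% of the *Exosc9* count in every library. As the sources used here do not say whether reads were counted by strand, reads of *Ccna2* and *Exosc9* cannot be told apart.

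The untested genes of this group had few counts. The mitotic cyclins *Ccnb1* and *Ccnb2* had 0 to 5 and 0 to 11 counts a library. *Aurkb*, the kinase of the chromosomal passenger complex, had 6 and 1 counts in control, 0 in both endotoxemic and 0 and 6 in LGK974 libraries, and a count of 0 allows up to 0.327 CPM there. *Foxm1*, a transcription factor of mitotic genes, had 4 to 15 counts.

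Checkpoint and anaphase-promoting complex genes were *Bub1*, *Bub1b*, *Cdc20* and *Ube2c*, and 3 were tested. *Ube2c* (chr2:164769898-164778822, plus strand), the ubiquitin-conjugating enzyme of the anaphase-promoting complex, had 1 and 5 counts in control, 9 and 17 in endotoxemic and 6 and 13 in LGK974 libraries. The groups of control and endotoxemic libraries did not overlap, but all values were low. The rise of 2.60 in the endotoxemic group (SE 0.91, adjusted p = 0.0452) ranged from 2.06 without control library 1 to 3.77 without control library 2. It did not pass without either control or either endotoxemic library (adjusted p = 0.0956 to 0.272), without LGK974 library 2 (adjusted p = 0.0533), when low rows were kept (adjusted p = 0.0593) or with DESeq2. *Cdc20*, an activator of that complex, had 0.557 and 0.523 CPM in control, 0.546 and 0.533 in endotoxemic and 1.06 and 0.812 in LGK974 libraries. The LGK974 libraries were the highest, without a call (adjusted p = 0.443 against control). *Bub1b*, a kinase-like protein of the spindle checkpoint, had 4 to 16 counts and overlapped across the groups, and *Bub1* had 5 and 3 counts in control, 0 in endotoxemic and 0 and 3 in LGK974 libraries.

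Of the 7 genes of kinetochores, motors and chromosomes, 6 were tested and none passed in any comparison by edgeR or DESeq2. At an unadjusted p below 0.05 there were 2 in the endotoxemic group against control, 1 between the LGK974 and endotoxemic groups and 2 between the LGK974 and control groups. The proliferation marker *Mki67* had 8 and 16 counts in control, 33 and 17 in endotoxemic and 19 and 26 in LGK974 libraries. The control libraries were the lowest, at 0.743 and 1.05 CPM, and the log2 fold change was 1.57 in the endotoxemic group (SE 0.62, adjusted p = 0.069), which passed with only the groups compared (adjusted p = 0.0436) and with identical libraries as separate samples (adjusted p = 0.0149). *Top2a*, topoisomerase II alpha, had 10 and 31 counts in control, 31 and 41 in endotoxemic and 42 and 43 in LGK974 libraries. Its change of 1.36 in the endotoxemic group (SE 0.53, adjusted p = 0.0634) passed in 6 alternative settings, which included a stricter filter (adjusted p = 0.0357) and the fits without LGK974 library 1 or 2 (adjusted p = 0.0458 and 0.0446).

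*Cenpa*, the histone variant that marks centromeres, went the other way, with 1.67 and 4.31 CPM in control, 1.09 and 1.07 in endotoxemic and 1.13 and 0.744 in LGK974 libraries. Both control libraries were above all others, but they differed from each other, and the adjusted p was 0.102 and 0.0748. The fall in the LGK974 group passed with at least 10 counts in every library (adjusted p = 0.0345), and both falls passed with identical libraries as separate samples (adjusted p = 0.0127 and 0.0213). *Birc5*, survivin, had 2.23 and 1.90 CPM in control, 0.873 and 0.959 in endotoxemic and 0.755 and 1.62 in LGK974 libraries (adjusted p = 0.182 between the endotoxemic and control groups). *Cenpe*, a kinetochore motor, had 1 to 17 counts and *Kif11*, a spindle motor, had 2 to 8.

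*Kif20a* encodes a kinesin of cytokinesis and had the smallest adjusted p of the set between the LGK974 and endotoxemic groups. It had 57 and 87 counts in control, 65 and 69 in endotoxemic and 31 and 52 in LGK974 libraries. On the CPM scale the LGK974 libraries were the lowest, at 2.34 and 3.52 CPM. The difference from the endotoxemic group was −1.30 (SE 0.37, adjusted p = 0.0749), and it passed without LGK974 library 2 (adjusted p = 0.0339), when low rows were kept (adjusted p = 0.0331) and with identical libraries as separate samples (adjusted p = 0.00412). Against the control group it was −0.90 (adjusted p = 0.0875), and passed without LGK974 library 2 (−1.22, adjusted p = 0.0378). All of the last 500 bases of *Kif20a* lie in exons of *Cdc23* on the other strand, whose counts were 51, 77, 65, 67, 30 and 51 in the same libraries. The count of *Kif20a* was 100% to 113% of it, and reads of *Kif20a* and *Cdc23* cannot be told apart.

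**Figure D4:**
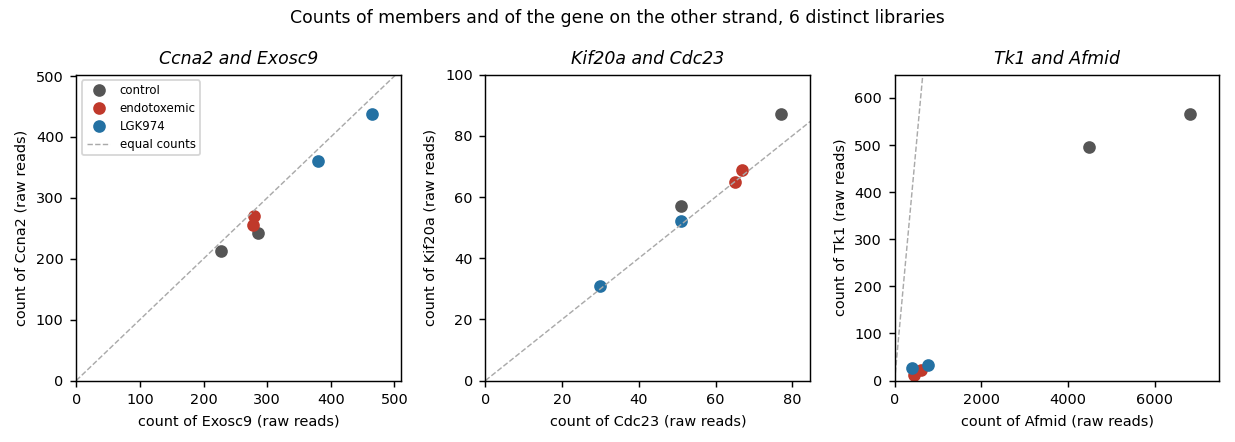
Raw counts of *Ccna2*, *Kif20a* and *Tk1* against those of a gene on the other strand that overlaps them in the 6 distinct libraries, with a dashed line of equal counts. *Ccna2* and *Kif20a* lie along the line, whereas *Tk1* lies far below it, at 2.66% to 11.1% of *Afmid*.

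Overlap of this kind touched 6 of the 38 genes. *Cdk4* has its last 500 bases in exons of *Tspan31* and reached 15.7% to 45.7% of its count, *Ccne2* has 304 bases in *Ints8* and reached 67.2% to 111%, and *Cdc20* has 53 bases in *Elovl1* and reached 1.46% to 2.95%. Without the 6 genes, the summed level was 194 and 195 CPM in control, 322 and 320 in endotoxemic and 260 and 173 in LGK974 libraries.

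Promoters of 31 of the 38 genes were matched by symbol in RefSeq (GRCm38.p6) as windows of 300 bases around the start. *Ccnd1*, *Ccne2*, *Mcm4*, *Ccna2*, *Aurkb*, *Foxm1* and *Kif20a* were not matched. They were searched on both strands for the CCAAT box (CCAAT), for the cell cycle homology region (CHR, TTTGAA) that mitotic genes are known for, and for letters found in E2F sites (TTTNNCGC), and no match overlapped another in the sequences printed. CCAAT was found in 23 of the 31 genes (74.2%), against 37.4% of all 32851 promoters of this length. TTTGAA was found in 12 (38.7%, against 17.9%) and TTTNNCGC in 9 (29.0%, against 5.17%). The E2F letters were in 4 of the *Mcm* genes, *Cdt1*, *Cdc6*, *Cdk1*, *Cdk2* and *Tyms*, and TTTGAA in *Aurka*, *Plk1*, *Cdk1*, *Mki67*, *Top2a*, *Ube2c* and 6 others. The windows of *Tk1*, *Rrm2* and *Aurka*, which fell in endotoxemic livers, and of *Cdk1*, which rose in LGK974 livers, are printed to show how these windows differ, with matches on either strand in capitals. That of *Cdk1* (chr10:69352863-69353162, minus strand) has 3 CCAAT, 2 TTTGAA and 2 TTTNNCGC, and that of *Aurka* (chr2:172370521-172370820, minus strand) has 2 CCAAT and 1 TTTGAA. That of *Rrm2* (chr12:24708004-24708303, plus strand) has 1 CCAAT, and that of *Tk1* (chr11:117825965-117826264, minus strand) has 0 of these letters. A match describes the letters and is not evidence of a bound site.
Tk1: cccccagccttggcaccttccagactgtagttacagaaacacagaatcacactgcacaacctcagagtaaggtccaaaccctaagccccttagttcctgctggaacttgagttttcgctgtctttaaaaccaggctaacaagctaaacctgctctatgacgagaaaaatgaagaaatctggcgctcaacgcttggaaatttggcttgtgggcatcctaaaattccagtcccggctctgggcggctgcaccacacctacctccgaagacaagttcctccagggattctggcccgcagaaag
Rrm2: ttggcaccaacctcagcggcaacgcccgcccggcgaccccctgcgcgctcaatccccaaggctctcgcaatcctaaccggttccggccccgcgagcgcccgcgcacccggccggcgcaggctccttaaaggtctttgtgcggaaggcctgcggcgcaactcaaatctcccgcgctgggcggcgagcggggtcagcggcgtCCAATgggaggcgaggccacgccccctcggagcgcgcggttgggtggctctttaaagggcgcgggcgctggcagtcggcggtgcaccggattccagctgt
Aurka: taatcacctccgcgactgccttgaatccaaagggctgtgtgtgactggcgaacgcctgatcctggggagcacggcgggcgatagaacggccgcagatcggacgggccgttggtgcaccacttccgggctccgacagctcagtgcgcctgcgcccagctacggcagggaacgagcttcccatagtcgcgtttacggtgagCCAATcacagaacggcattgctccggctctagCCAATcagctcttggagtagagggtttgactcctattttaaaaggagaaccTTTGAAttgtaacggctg
Cdk1: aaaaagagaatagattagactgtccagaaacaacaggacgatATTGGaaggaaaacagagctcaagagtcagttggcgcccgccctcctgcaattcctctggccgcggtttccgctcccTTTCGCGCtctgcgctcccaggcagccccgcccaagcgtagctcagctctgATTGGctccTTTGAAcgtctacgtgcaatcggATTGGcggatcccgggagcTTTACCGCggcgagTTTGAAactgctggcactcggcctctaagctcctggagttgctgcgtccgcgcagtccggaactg

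Other genes of the same pathways were counted from whole lists. Their calls are read against the 43.4% of all genes that passed in the endotoxemic group and the 34.1% in the LGK974 group against control. Between the LGK974 and endotoxemic groups the share of all genes was 5.62%. These shares were not matched to the lists on level of expression either. Of 8 tested CDK inhibitors and pocket proteins, 2 rose and 3 fell in the endotoxemic group (62.5%), 1 rose and 2 fell in the LGK974 group against control (37.5%), and none rose and 1 fell from the endotoxemic to the LGK974 group (12.5%), while *Cdkn2a* and *Cdkn2b* were not tested. *Cdkn1a*, the inhibitor that halts the cycle in stress, had 100 and 143 counts in control, 4218 and 3829 in endotoxemic and 3475 and 2793 in LGK974 libraries. All libraries of LPS-treated mice were far above the control libraries, and those of the LGK974 group were below the endotoxemic ones on the CPM scale, at 262 and 189 against 460 and 408. The log2 fold change was 5.54 in the endotoxemic group (SE 0.26, adjusted p = 1.16e-06), and −0.94 from the endotoxemic to the LGK974 group (SE 0.21, adjusted p = 0.0366). The latter did not pass without either control or either endotoxemic library (adjusted p = 0.0994 to 0.223) or with only the groups compared (adjusted p = 0.0919). *Cdkn1c*, an inhibitor of the same family, went the opposite way, with 139 and 125, 11 and 6, and 16 and 15 counts in the control, endotoxemic and LGK974 libraries (log2 fold change −3.50, adjusted p = 0.000552 in the endotoxemic group).

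*Cdkn2c*, an inhibitor of Cdk4 and Cdk6, fell by 1.83 in the endotoxemic group (adjusted p = 0.0136), and *Cdkn1b* and *Cdkn2d* did not pass, at −0.77 and 0.17. Of the pocket proteins, which hold E2F factors in check, *Rbl1* rose by 1.71 (adjusted p = 0.0242), *Rbl2* fell by 1.90 (adjusted p = 0.000506) and *Rb1* did not pass (0.51, adjusted p = 0.29). *Rbl1* did not pass when any of the 4 libraries compared was left out (adjusted p = 0.0641 to 0.147), and *Cdkn2c* not without control library 2 or either endotoxemic library (adjusted p = 0.0777 to 0.0894). *Rbl2* shares 346 of its last 500 bases with *Aktip* exons and had 85.6% to 109% of its count. Among 15 tested E2F and MuvB factors, 4 rose and 2 fell in the endotoxemic group (40%, against 43.4% of all genes), and 3 rose and 1 fell in the LGK974 group against control (26.7%, against 34.1%). Between the LGK974 and endotoxemic groups 0 passed by edgeR or DESeq2, with 1 at an unadjusted p below 0.05. *E2f8*, an E2F repressor, had 48 and 45 counts in control, 106 and 119 in endotoxemic and 208 and 155 in LGK974 libraries, a rise of 1.72 and 1.83. *Mybl1* had 0 and 3 counts in control, 21 and 41 in endotoxemic and 59 and 17 in LGK974 libraries, and *Tfdp2*, an E2F partner, fell by 1.98 and 1.28. Without control library 1, *Mybl1* did not pass in the LGK974 group (adjusted p = 0.0686).

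Of 11 tested cyclins and CDK regulators outside the set, 1 rose and 3 fell in the endotoxemic group (36.4%, against 43.4% of all genes), 2 rose and 1 fell in the LGK974 group against control (27.3%, against 34.1%), and 1 rose and none fell from the endotoxemic to the LGK974 group (9.09%, against 5.62%). *Cks1b*, a CDK subunit that acts with Skp2 in the breakdown of Cdkn1b, had 138 and 147 counts in control, 120 and 121 in endotoxemic and 437 and 722 in LGK974 libraries. The LGK974 libraries stood apart from both other groups, with a log2 fold change of 1.65 against the endotoxemic group (SE 0.27, adjusted p = 0.0136) that did not pass without endotoxemic library 1 or 2 (adjusted p = 0.126 and 0.136). Its paralog *Cks2* fell by 2.66 in the endotoxemic group (adjusted p = 0.00245) and by 2.01 in the LGK974 group (adjusted p = 0.00942, and 0.0714 without control library 1), the latter by 2.88 without LGK974 library 2. *Cdc25a*, a phosphatase that activates CDKs, rose by 1.11 and 1.40, and the inhibitory kinase *Wee1* fell by 2.17 in the endotoxemic group. The endotoxemic call of *Wee1* did not hold when any of the 4 libraries compared was left out (adjusted p = 0.0831 to 0.219, with a fall of 2.81 without endotoxemic library 1), nor that of *Cdc25a* without either control library or endotoxemic library 2 (adjusted p = 0.0506 to 0.0653).

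Of 34 tested replisome and origin factors, 2 rose and 7 fell in the endotoxemic group (26.5%, against 43.4% of all genes), 1 rose and 3 fell in the LGK974 group against control (11.8%, against 34.1%), and 2 rose and none fell from the endotoxemic to the LGK974 group (5.88%, against 5.62%). *Mcm10*, a helicase activator at origins, had 328 and 504 counts in control, 25 and 24 in endotoxemic and 99 and 292 in LGK974 libraries. The 3 groups did not overlap on the CPM scale, with a change of −3.58 in the endotoxemic group (SE 0.46, adjusted p = 0.000289) and of 2.36 from there to the LGK974 group (SE 0.45, adjusted p = 0.0214). The latter was 1.5 without LGK974 library 2 (adjusted p = 0.0094), and it did not pass without either control or either endotoxemic library (adjusted p = 0.0539 to 0.187) or with only the groups compared (adjusted p = 0.061). *Gmnn*, geminin, which inhibits Cdt1, fell by 2.84 in the endotoxemic group and by 1.98 in the LGK974 group. *Fen1*, the flap endonuclease, rose by 1.20 and 1.77. *Gmnn* did not pass in the LGK974 group without control library 2 (adjusted p = 0.0538), nor *Fen1* in the endotoxemic group without either control library or endotoxemic library 1 (adjusted p = 0.0581 to 0.0922).

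Of 46 genes of the spindle, kinetochore and cytokinesis, 20 had too few counts to be tested. Of the 26 tested, 3 rose and 2 fell in the endotoxemic group (19.2%, against 43.4% of all genes), and 2 rose and 2 fell in the LGK974 group against control (15.4%, against 34.1%). Between the LGK974 and endotoxemic groups 0 passed by edgeR, 4 had an unadjusted p below 0.05 and DESeq2 called 1 higher. *Spc24*, a subunit of the Ndc80 complex of the kinetochore, had 233 and 265 counts in control, 3 and 18 in endotoxemic and 30 and 19 in LGK974 libraries, with log2 fold changes of −4.09 (SE 0.59, adjusted p = 0.000586) and −3.45 (SE 0.54, adjusted p = 0.00128) against control. The former was −3.28 without endotoxemic library 1 and −5.85 without endotoxemic library 2, and passed in both fits. Its partner *Spc25* fell by 2.17 in the endotoxemic group, with an adjusted p of 0.0512 without endotoxemic library 1. *Kif22*, a chromosome-binding kinesin, had 12 and 6 counts in control, 55 and 60 in endotoxemic and 305 and 191 in LGK974 libraries, a rise of 3.10 (adjusted p = 0.00134) and 4.64 (adjusted p = 0.000162). These were 3.95 and 5.48 without control library 1 and 2.47 and 4.00 without control library 2. The groups did not overlap for *Kif22*, and for *Spc24* the control libraries were the highest. *Ncapg*, a condensin subunit, was called lower in the LGK974 group, with 23 and 10 counts in control against 0 and 2 in LGK974 libraries. It did not pass with a replicate block (adjusted p = 0.0652), or when any control or endotoxemic library or LGK974 library 1 was left out. Over the alternative settings *Ncapg* ranged from −6.99 to −3.04. All of its last 500 bases lie in exons of *Lcorl* on the other strand, of whose count it had at most 14.6%.

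**Figure D5:**
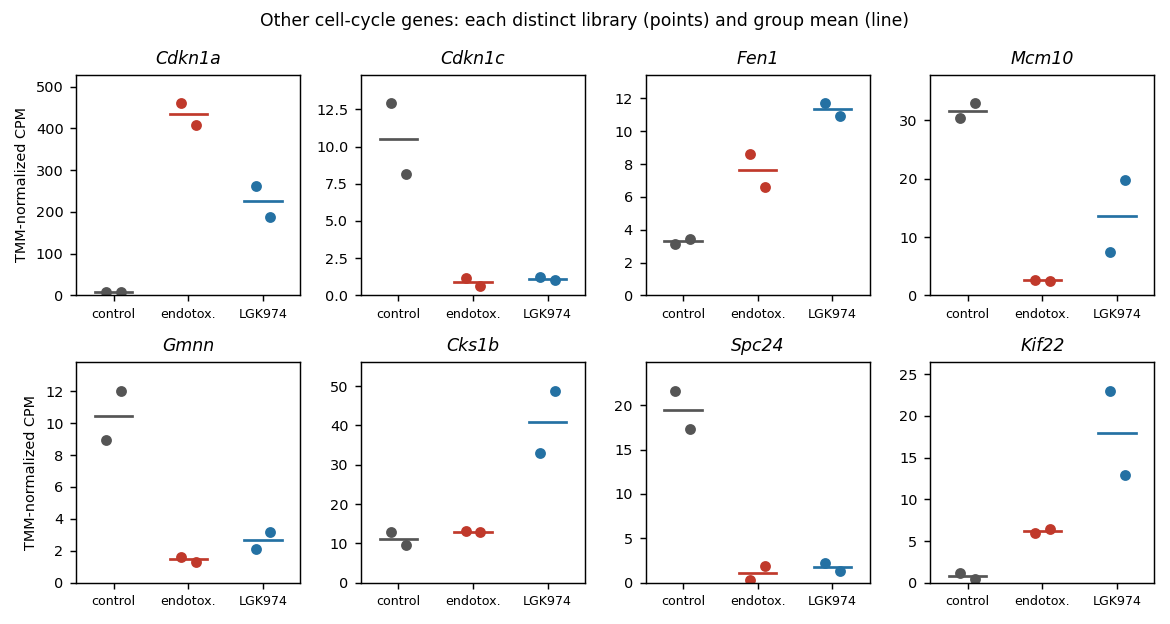
TMM-normalized CPM of 8 cell cycle genes outside the set in the 6 distinct libraries (points) with the group mean (line), each panel on its own linear axis from 0. *Mcm10* shows the LGK974 libraries between the control and endotoxemic libraries, and *Cks1b*, *Kif22* and *Fen1* show them above both.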

How the data were processed

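Libraries were made from 500 ng of liver RNA with a Lexogen QuantSeq kit, which reads the 3′ end of transcripts. The deposited values are whole-number read counts per gene symbol, not normalized, on mm10 per the labels, with Bowtie2 and edgeR named in the submitters' processing notes. The counting program, its strand setting and the tool versions are not given in the sources used here. Because reads come from the 3′ end, counts do not grow with gene length.

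Differential expression was tested with edgeR 4.0.16 under R 4.3.3. Libraries of a group with identical counts entered once, low rows were removed by filterByExpr, TMM factors were applied, and group means of the 6 distinct libraries were fitted in 1 quasi-likelihood model (common biological coefficient of variation 0.239). Each comparison was tested with the quasi-likelihood F test and Benjamini-Hochberg adjustment over all 12701 genes tested, and a call is an adjusted p below 0.05. CPM are TMM-normalized, and the floor of 3 counts covers counting error only. The SE of a log2 fold change comes from the quasi-likelihood fit and includes the spread between libraries. *Rn45s*, the 45S ribosomal RNA, held 4.80% to 9.38% of the counts.

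The cell division genes and all lists were chosen with earlier results of these data known. All 38 genes could be named, and of the other pathway lists up to 3 of the largest rises and falls that passed and every tested CDK inhibitor and pocket protein. Alternatives were no filter, at least 10 counts in every library, RLE size factors, DESeq2 1.42.0, a replicate block and identical libraries as separate samples. Others were only the groups compared, rows out of order left out or reassigned, *Rn45s* left out of library sizes, and each library left out. Symbols were reassigned in the endotoxemic and LGK974 libraries only, and control values kept theirs. Row order was checked against RefSeq positions, and gene coordinates come from GENCODE on GRCm38. A test on simulated data of the endotoxemic against control comparison held 12701 genes, 200 of them changed. The model recovered 33% of genes changed by a fold of 2 and 85% by a fold of 4, with 3.28% of calls false. In the data 43.4% of genes passed, and the simulated spread followed its trend with level, without further variation between genes. These rates therefore need not hold for the data. Some genes of the other pathway and marker lists count in the totals but are not reported here by name.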

Additional observations from a re-analysis of the deposited data

How the results depend on the processing

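No cell division gene that passed changed direction in any setting. In the endotoxemic group against control, the number of cell division genes that rose was 5. It was 3 with at least 10 counts in every library (*Ccnd1* and *Ccna2* of the 5, and *Top2a*), 10 with identical libraries as separate samples, 3 with DESeq2 and 1 to 6 when a library was left out. The 3 that fell became 1 with the 10-count filter, 5 with identical libraries kept and 1 to 3 with a library left out. Between the LGK974 and endotoxemic groups, 0 rose, against 1 without a filter, 2 with identical libraries kept and 1 with DESeq2, and 0 fell, against 2, 2 and 1 and against 0 to 1 with a library left out. In the LGK974 group against control, 4 rose, against 7 without a filter and 2 to 5 with a library left out, and 1 fell, against 2 with the 10-count filter, 4 with identical libraries kept and 1 to 3 with a library left out.

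Over all genes, the 5513 calls in the endotoxemic group became 3432 to 6719 with a library left out, and the 4328 in the LGK974 group against control 2372 to 5369. The 714 between the LGK974 and endotoxemic groups became 1705 without a filter, 3259 with identical libraries kept, 269 with only those groups fitted, 1124 with DESeq2 and 49 to 2242 with a library left out. When a library is left out, its group has 1 library, which is assumed to vary like the others. The cause of these shifts was not tested. With identical libraries as separate samples, which counts a library more than once, the added cell division calls against control were *Mcm2*, *Mcm3*, *Cdk1*, *Mki67*, *Top2a*, *Cenpa* and *Birc5* in the endotoxemic group and *Ccna2*, *Aurka*, *Cenpa* and *Kif20a* in the LGK974 group, and between the LGK974 and endotoxemic groups they were *Ccnd1*, *Ccne1*, *Rrm2* and *Kif20a*.

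With a replicate block, 5485 genes passed between endotoxemic and control, 685 between LGK974 and endotoxemic and 4307 between LGK974 and control, and the cell division calls were 5 and 3, 0 and 0, and 5 and 1 higher and lower. In the last of these *Mcm3* no longer passed (adjusted p = 0.0546), while *Cdk4* (adjusted p = 0.0355) and *Ccna2* (adjusted p = 0.0366) did, and no other call among the cell division genes changed. Of the calls of other pathway genes chosen by the naming rule, those of *Tpx2* in the endotoxemic group (adjusted p = 0.0648) and *Ncapg* in the LGK974 group (adjusted p = 0.0652) no longer passed. Same-numbered libraries deviated together with a correlation of 0.14, 0.061 and −0.0075 in these comparisons, so the numbers were taken as names only and not as paired mice. At this depth the 7 untested cell division genes, with at most 15 counts in a library, give values only.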
